A study of Mus musculus with 10 samples.

Results

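The response of macrophages to confinement was compared between cells with and without WASp, as the difference of 2 differences for each gene: confined minus unconfined cells lacking WASp (WKO), minus confined minus unconfined wild-type (WT) cells. It covers 12455 of the 57010 gene identifiers in the table, those whose normalized read count averaged 10 or more across the 10 libraries. The gene nearest the limit on the inside had a mean of 10.0003, and the nearest one outside had 9.99777. WASp, the product of Was, activates the Arp2/3 complex, which builds branched actin. The cells were bone marrow-derived macrophages, that is, marrow precursors turned into macrophages over 7 days of culture in 20 ng/mL M-CSF, the growth factor of macrophages. There were 2 unconfined WT libraries (replicates 1 and 3), 2 unconfined WKO libraries (1 and 3), 3 confined WT libraries (2, 3 and 6) and 3 confined WKO libraries (1, 2 and 5). Confined cells spent 1 h beneath silicone micropillars that left 3 µm of height. Whether unconfined cells passed through the device, and how the WKO mice were made, is not in the labels. They also do not say whether libraries come from separate animals, so p-values measure the spread between these libraries, which may be technical. The question the design poses is which part of the response both genotypes share and which part depends on WASp.

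Macrophages sense deformation through the plasma membrane, the actin cortex and the nucleus, and squeezing of the nucleus can open its envelope and expose DNA to the cytosol. Within minutes of a stimulus, kinases switch on immediate early genes such as those of the FOS, JUN, EGR and NR4A families, whose promoters need no new protein synthesis. NF-kB, released from its inhibitors, drives chemokine and cytokine genes together with the genes of its own inhibitors, so that transcription of ligands and of brakes starts side by side. Actin assembly also feeds back on transcription, because the coactivators MRTF and YAP enter the nucleus when actin is polymerised and act there with SRF and TEAD.

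Libraries held between 13295701 and 19329908 reads. Was (ENSMUSG00000031165) was at 1308 and 1639 in WT unconfined, 1618, 1569.6 and 1649 in WT confined, 154 and 141 in WKO unconfined and 98.9, 96.9 and 125 in WKO confined libraries. All WKO libraries were far below all WT libraries, and within WKO the confined libraries were below the unconfined ones. The 15 macrophage markers, Csf1r, Adgre1 and Cd68 among them, were all measured and summed to between 276289 and 390257 per library. Markers of other cells were present too. Stromal markers such as collagens summed to 1276 to 2555 in WT unconfined, 371 to 1158 in WT confined, 3607 to 4284 in WKO unconfined and 1479 to 14980 in WKO confined libraries, the highest being confined WKO replicate 5. Neutrophil and progenitor markers summed to 12077 to 13327, 5602 to 12954, 27300 to 33271 and 8647 to 30991 in the same order of groups, and B-lineage markers to 1024 to 1044, 419 to 863, 5206 to 5458 and 1828 to 6524. Erythroid and mast cell markers did not reach the limit on the mean. The use of strand is not stated, so counts of genes that overlap exons of another gene are uncertain. Among those named below, this holds for Mir155hg, Tnfsf9, Cxcl10, Mafk, Csrnp1, Dusp1, Dusp8, Zfp36, Zfp36l2, Cish, Ptger2, Irf1, Ccn2, Tnk2, Wdr5b and Rasgrp2. Counts of Jund, Dusp5, Hsp90aa1 and Cebpb are uncertain because at least 20% of their sequence recurs in another gene. In such bulk samples, fewer cells of a type and less RNA per cell cannot be told apart.

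On the average of the 2 genotypes, confinement changed a broad set of genes. On the log2(normalized read count + 1) scale, the average of the WT and WKO responses passed limma's threshold (Benjamini-Hochberg adjusted p below 0.05) for 515 genes that rose (4.13% of all tested) and 258 that fell (2.07%). All 773 (6.21% of the genes tested) had the same sign in both genotypes. In 698 of them (90.3%) the confined libraries lay wholly to one side of the unconfined ones in each genotype, where 13% of all tested genes did so. The genes were chosen by their average over these same libraries, which by itself favours equal signs and separate groups, so both counts describe the set and support nothing further. The rises had a median of 0.75 in WT and 0.86 in WKO, and the falls a median of -0.66 in WT and -0.61 in WKO, while the medians over all genes tested were -0.01 in each. Taken alone, the WT response passed for 144 genes (1.16%), of which 111 rose (0.891%) and 33 fell (0.265%). The WKO response passed for 214 (1.72%), of which 185 rose (1.49%) and 29 fell (0.233%). These 2 comparisons share no library, but 1 fit gives both the same spread for each gene, taken from all 10 libraries. They are therefore not independent. In both, 96 genes passed, which is 66.7% of the WT genes and 44.9% of the WKO genes. Of the 773 genes of the average response, 514 passed in neither genotype alone. Neither the sizes nor the order of these counts was stable: fitted on the libraries of each genotype alone, 455 genes passed in WT and 33 in WKO. Leaving out 1 library gave 22 (without unconfined WT replicate 1) to 397 (without confined WKO replicate 5) for WT, 43 (without unconfined WKO replicate 1) to 1043 (without confined WKO replicate 1) for WKO, and 288 to 1807 for the average, again without unconfined and confined WKO replicate 1.

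**Figure D1:**
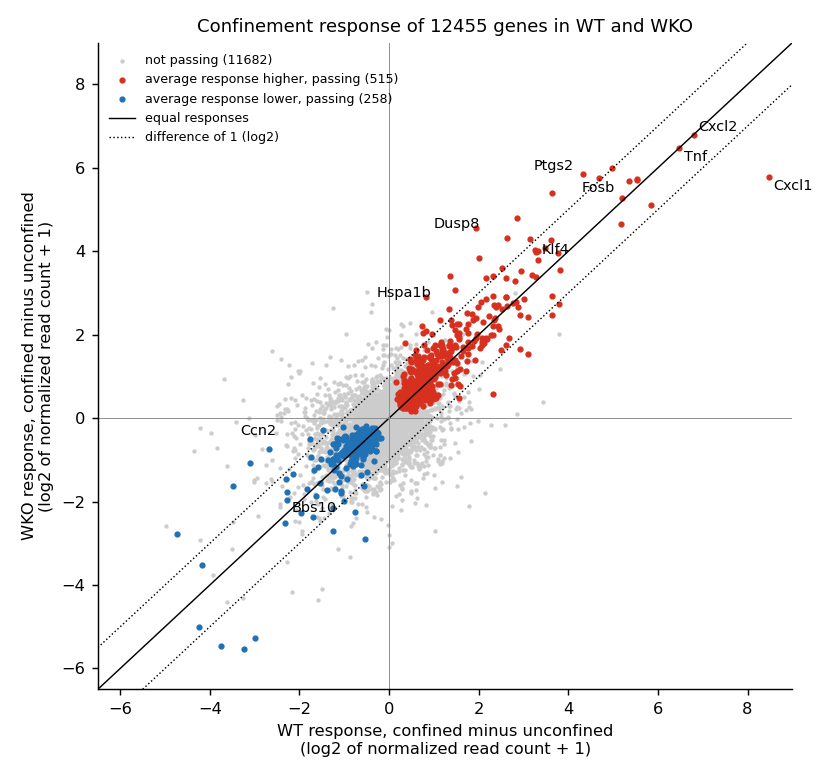
Response to confinement of each of the 12455 genes tested in WT (horizontal axis) and WKO (vertical axis), confined minus unconfined group means of log2(normalized read count + 1); the solid line marks equal responses and the dotted lines a difference of 1. The 515 red and 258 blue genes, which passed in the average response, lie along the solid line at the upper right and lower left, and Cxcl1 is the highest in WT at 8.48 against 5.77 in WKO.

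Ligands that call in and activate other leukocytes gave the largest rises. Cxcl2, a chemokine that attracts neutrophils, had normalized read counts of 50.3 and 31.7 in WT unconfined, 2207, 4962 and 8728 in WT confined, 51.3 and 66.1 in WKO unconfined and 5636, 2471 and 20069.8 in WKO confined libraries. Every confined library was far above every unconfined one, and confined WKO replicate 5 was the highest. The rise was 6.80 in WT and 6.79 in WKO on the log2 scale (average 6.79, SE 0.5, limma adjusted p 2.06e-05). The difference of the rises was -0.02, with a 95% confidence interval from -2.20 to 2.17. Tnf, the macrophage cytokine TNF, stood at 71.2 and 69.1 in WT unconfined, 3293, 5719 and 13389.5 in WT confined, 32.6 and 124 in WKO unconfined and 4583, 2368 and 17188 in WKO confined libraries. The confined libraries of both genotypes spread widely and overlapped each other, and none came near an unconfined library. Its rises were 6.47 and 6.46 (average 6.47, SE 0.541, limma adjusted p 5.02e-05), with a difference of -0.01 (95% confidence interval -2.37 to 2.35). Il1b, the precursor of interleukin-1 beta, had 13.3 and 21.1 in WT unconfined, 637, 870.4 and 705 in WT confined, 18.7 and 32.00 in WKO unconfined and 968, 415 and 5615 in WKO confined libraries. Replicate 5 again stood highest, well above the other confined libraries. Its rise averaged 5.52 (limma adjusted p 0.00013), and reads could also belong to the antisense gene Il1bos, since the use of strand is not stated.

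Of the 16 chemokine genes tested, 4 rose and none fell in the average response, where 4.13% of all genes tested rose and 2.07% fell. This list and those below were chosen with earlier results of these data known, so their counts are descriptions. Beside Cxcl2 these were Cxcl1, Cxcl3 and Cxcl10. Cxcl3 had no read in either unconfined WKO library and at most 1 in WT, against 17.1, 9.38 and 27.3 in WT confined and 21.97, 21.1 and 144 in WKO confined libraries. With 3 reads in a library taken as the floor of detection, which covers counting error only, the mean of the confined libraries was at least 6.23-fold higher in WT and at least 20.1-fold higher in WKO. Cxcl10, an attractant of T cells, rose by an average of 3.56 (limma adjusted p 0.00352). The median over the chemokines was 0.40 in WT and 1.26 in WKO, and 0.51 in WKO without confined replicate 5; with Cxcl3 at its bound the first 2 medians were the same. Of the 13 cytokines tested, 7 rose and none fell. They include Osm, an interleukin-6 family cytokine, which rose by 2.57 (limma adjusted p 0.000209), and Vegfa, the angiogenic growth factor, which rose by 1.24 (limma adjusted p 0.000159). Tnfsf9, the ligand of 4-1BB, rose by 5.22 (limma adjusted p 0.00136). Mir155hg, the host transcript of the immune microRNA miR-155, was at 0 in all unconfined libraries and reached 26.8, 43.4 and 78.7 in WT confined and 16.5, 22.1 and 377 in WKO confined libraries, so its mean was at least 17.2-fold higher in WT and at least 44.8-fold higher in WKO.

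The stretches before the start sites of Cxcl1, Cxcl2 and Nfkbia (the inhibitor IkB-alpha) are shown because these genes rose together and each holds a kB site, the element that NF-kB binds. They are RefSeq sequences of build GRCm38.p6, printed 5′ to 3′ on the gene's strand with the matched bases in capitals. Cxcl1 is chr5:90891134-90891214 on the plus strand, Cxcl2 is chr5:90903762-90903842 on the plus strand and Nfkbia is chr12:55492648-55492716 on the minus strand. In the first 2, a pair of overlapping matches makes up the capitals.
Cxcl1: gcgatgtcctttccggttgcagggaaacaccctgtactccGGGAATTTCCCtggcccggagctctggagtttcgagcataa
Cxcl2: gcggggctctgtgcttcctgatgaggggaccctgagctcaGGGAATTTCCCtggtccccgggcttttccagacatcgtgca
Nfkbia: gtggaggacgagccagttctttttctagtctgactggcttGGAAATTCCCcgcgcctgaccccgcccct
The matches begin 71, 97 and 29 bases before the start site. Searched on both strands of the 250 bases upstream, the kB site was found in 14.3% of 545 windows of genes that rose, in 7.94% of 252 windows of genes that fell, in 8.89% of the windows of all genes tested and in 7.25% of all 32851 windows. RefSeq windows were found for 404 of the 515 genes that rose and 199 of the 258 that fell. A match describes letters in this window and does not show that a factor binds there.

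**Figure D2:**
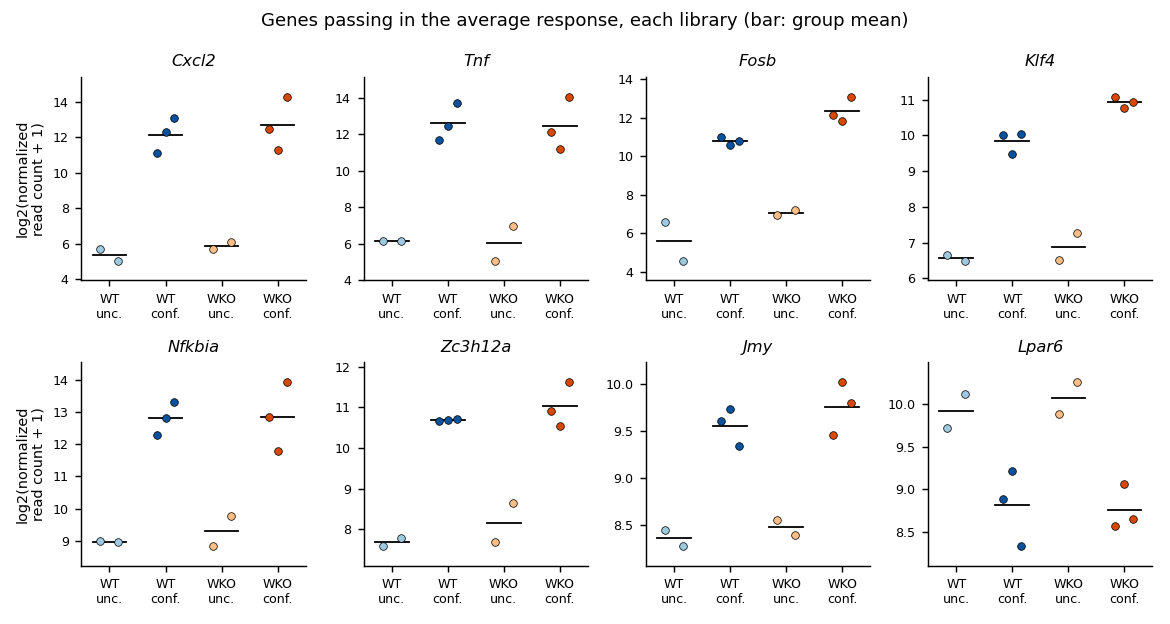
Normalized read count of 8 genes that passed in the average response, as log2(value + 1) on an axis of its own for each gene; points are libraries and bars are group means. In each gene the confined libraries lie wholly above the unconfined ones in both genotypes, except Lpar6, where they lie wholly below.

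Transcription factors of the immediate early class rose with the ligands. Fosb, a partner in the AP-1 dimer, had 95 and 23.03 in WT unconfined, 2011, 1546 and 1779 in WT confined, 122 and 146 in WKO unconfined and 4549.6, 3556 and 8619 in WKO confined libraries. Confined WKO libraries were all above confined WT libraries, and unconfined WKO libraries were above unconfined WT ones too. The rises were 5.20 in WT and 5.27 in WKO (average 5.24, SE 0.333, limma adjusted p 1.2e-05). Klf4, a zinc finger factor of macrophage activation, had 101 and 89.3 in WT unconfined, 1029.5, 717 and 1043 in WT confined, 89.8 and 154 in WKO unconfined and 2158, 1720.2 and 1965 in WKO confined libraries. The 3 confined WKO libraries lay close together and above all confined WT libraries, whereas the unconfined libraries of the genotypes overlapped. It had the smallest adjusted p of all genes in the average response (average 3.65, SE 0.164, limma adjusted p 6.82e-07). Its difference of responses was 0.77 (95% confidence interval 0.06 to 1.49), with an unadjusted limma p of 0.0362 that passed 0.05 in 15 of 21 alternatives and did not survive adjustment.

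Of 11 AP-1 factors, 9 rose and none fell in the average response, where 4.13% of all genes tested rose and 2.07% fell. Fosl2 rose by 1.89 (limma adjusted p 1.2e-05), Maff by 3.72 (limma adjusted p 2.18e-05) and Mafk, in contrast with these, by slightly more in WT (1.58) than in WKO (1.17). Fos rose by 1.56 and 2.27 (limma adjusted p of the average 0.000662). Of the 6 EGR and NR4A factors tested, 5 rose. Nr4a1, an orphan nuclear receptor, averaged 3.95 (limma adjusted p 1.56e-05), and Nr4a3, of the same family, 5.49 (limma adjusted p 0.000164). Egr1 averaged 3.67 (limma adjusted p 0.000124). Egr2 alone did not pass, with values of 0.61 in WT and 2.02 in WKO (limma adjusted p 0.0578). Of 10 Kruppel-like factors 8 rose, with Klf10 at 1.32, Klf11 at 1.09 and Klf13 at 0.72. Of 17 IER and other early genes 11 rose and none fell. Gem, a small GTPase of the RGK family, was near the floor of 3 reads in unconfined libraries and went from 2.85 and 4.8 to 181, 267 and 214 in WT and from 1.97 and 9.29 to 236, 128 and 782 in WKO libraries. Csrnp1, a nuclear factor first found as induced by axin, averaged 3.86 (limma adjusted p 0.000159), and Gadd45b, a stress sensor that binds MAP kinase kinases, 2.52 (limma adjusted p 0.000161).

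Genes that restrain these pathways rose in the same libraries. Nfkbia had 512 and 497 in WT unconfined, 4968, 7216 and 10114 in WT confined, 459 and 873 in WKO unconfined and 7366, 3556 and 15490.3 in WKO confined libraries. No confined library overlapped an unconfined one, and the confined WKO libraries lay on both sides of the confined WT ones. Its rises were 3.82 and 3.55 (average 3.68, SE 0.343, limma adjusted p 9.93e-05), with a difference of -0.27 (95% confidence interval -1.77 to 1.23). Of the 19 NF-kB subunits and feedback inhibitors tested, 11 rose and none fell, against 4.13% and 2.07% of all genes tested. Nfkbiz, which encodes IkB-zeta, rose by 4.92 (limma adjusted p 7.88e-05), the ubiquitin-editing enzyme gene Tnfaip3 (A20) by 2.57 (limma adjusted p 0.000587) and the subunit gene Rel by 2.33 in WT and 2.34 in WKO (limma adjusted p of the average 0.000149).

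Zc3h12a, which encodes the RNase regnase-1 that degrades cytokine transcripts, had 191 and 218 in WT unconfined, 1613, 1653 and 1685 in WT confined, 203 and 401 in WKO unconfined and 1938, 1480.2 and 3148 in WKO confined libraries. The 3 confined WT libraries were nearly equal, and the confined WKO libraries lay on both sides of them. Its rises were 3.01 and 2.86 (average 2.94, SE 0.212, limma adjusted p 2.01e-05; difference -0.15, 95% confidence interval -1.07 to 0.78). Of 10 regulators of cytokine mRNA decay 4 rose. For this and the next lists, 4.13% of all genes tested rose and 2.07% fell. Zfp36, which encodes tristetraprolin, averaged 1.95 (limma adjusted p 0.00145). Of 14 MAP kinase feedback genes 9 rose and 1 fell. The phosphatase gene Dusp1 rose by 2.04, Dusp2 by 3.27 and Dusp5 by 2.98 (limma adjusted p 0.00198, 0.000963 and 5.02e-05). The gene that fell was Dusp6, chosen here after its values were seen, at -0.89 (limma adjusted p 0.0133). Socs3, a brake on JAK-STAT signalling, went from 19.00 and 19.2 to 716, 1136 and 1915 in WT and from 21.7 and 119 to 1501, 599 and 6332 in WKO libraries (average 5.48, limma adjusted p 0.000259), and 3 of the 8 SOCS genes tested rose. Of these, Cish and Socs1 lost the call under 9 of 20 alternatives each. Ptgs2, the inducible cyclooxygenase of prostaglandin synthesis, had 17.1 and 37.4 in WT unconfined, 515, 636 and 442 in WT confined, 12.8 and 28.9 in WKO unconfined and 1213, 509.5 and 2617 in WKO confined libraries. Confined libraries were far above unconfined ones, with confined WKO replicates 1 and 5 above all WT libraries. The rise was 4.32 in WT and 5.85 in WKO (average 5.09, SE 0.398, limma adjusted p 3.39e-05), and the difference of 1.53 had an interval that included 0 (-0.21 to 3.27). No other of the 12 prostaglandin genes rose, and the receptor gene Ptger2 fell, with an average of -0.73 (limma adjusted p 0.0235), a call lost in 6 of 21 alternatives.

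In the lists of the actin machinery, the nuclear envelope and cytosolic DNA sensing, the shares that passed were near the 6.21% of all genes tested. Of the 22 WASp family and Arp2/3 genes tested only Jmy passed. Jmy encodes an actin nucleator that also serves as a cofactor of p53, and it had 349 and 310.0 in WT unconfined, 781, 851 and 648 in WT confined, 376 and 337 in WKO unconfined and 706, 1040.1 and 893 in WKO confined libraries. Confined libraries were above unconfined ones in both genotypes, with WT and WKO overlapping in each condition. It rose by 1.20 in WT and 1.29 in WKO (average 1.24, SE 0.127, limma adjusted p 0.000161), and the interval of the difference, -0.46 to 0.64, lay within 1. Of 21 integrin and podosome genes 2 rose, the hyaluronan receptor gene Cd44 (0.73, limma adjusted p 0.0272) and Sh3pxd2a, a podosome scaffold (0.46, limma adjusted p 0.0471), and each lost the call in 11 of 21 alternatives. Among 26 genes of lamins, the LINC complex and ESCRT-III, Lmna (lamin A/C) rose by 0.61 and 1.06 (limma adjusted p 0.00283). Syne3, which encodes nesprin-3, was the other of the 2 that rose, and its call was lost in 9 of 21 alternatives. Of 16 cytosolic DNA sensing genes only the inflammasome gene Nlrp3 rose (1.80, limma adjusted p 0.00505). Of 28 type I interferon response genes only Irf1 rose, from 491 and 547 to 3626, 5464 and 4414 in WT and from 723 and 1172 to 4349.6, 3198 and 8777 in WKO libraries (average 2.76, limma adjusted p 6.56e-05). The interferon list had a median of -0.05 in WT and -0.17 in WKO.

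Of 20 SRF and MRTF targets tested none rose, a count near the 4.13% of all genes. Cnn2 (calponin 2) fell, with -0.51 (limma adjusted p 0.0211, lost in 6 of 21 alternatives), and the medians of the list were 0.06 in WT and 0.13 in WKO. Of 13 YAP and TEAD targets, the kinase gene Nuak2 rose by 1.23 and 1.19 (limma adjusted p 0.000581) and the receptor gene Axl fell. Axl had 1136 and 1655 in WT unconfined, 637, 581 and 631 in WT confined, 2277 and 2702 in WKO unconfined and 1940.2, 1875 and 1525 in WKO confined libraries. Confined WT libraries were the lowest, and all WKO libraries lay above all confined WT libraries. It changed by -1.15 in WT and -0.49 in WKO (average -0.82, limma adjusted p 0.00204; difference 0.67, unadjusted limma p 0.0158). Stress genes were mixed. Of 22 p53 targets 6 rose and 1 fell, with Gdf15, a stress-induced cytokine, at 2.63 (limma adjusted p 6.48e-05) and Mdm2, the ubiquitin ligase of p53, at 1.35 (limma adjusted p 0.00691). Of 18 heat shock chaperones 3 rose, Hspa1a by 2.76 and Hspa1b by 1.86 (limma adjusted p 0.000863 and 0.00587). Those 2 share most of their sequence, so the split of reads between them is uncertain. Of 16 integrated stress response genes 4 rose and 1 fell, led by Cebpb, a factor of inflammatory transcription, at 1.93 (limma adjusted p 0.000941). Of 30 glycolysis and hypoxia genes 3 rose and 1 fell, and none of 62 ribosomal protein genes passed.

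**Figure D3:**
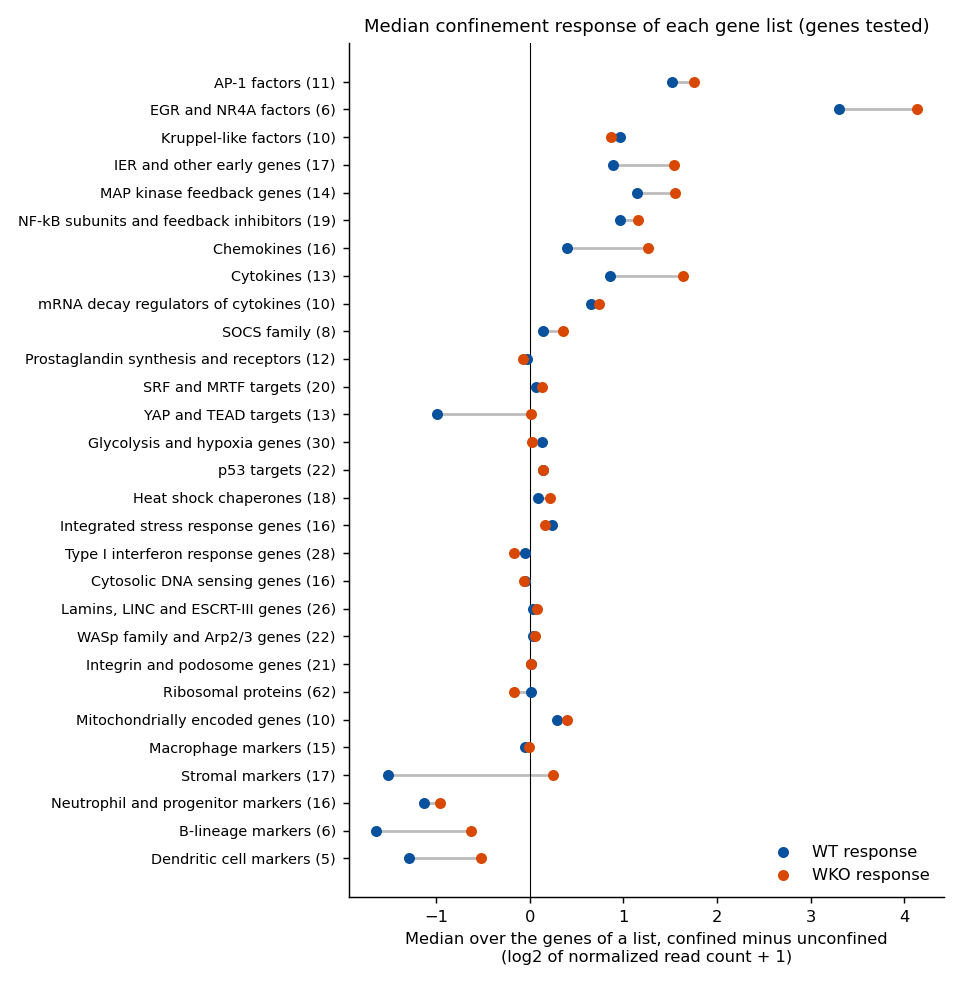
Median response to confinement (log2) over the genes of each list with at least 5 genes tested, in WT (blue) and WKO (orange); the number tested stands in brackets. The early gene, cytokine and chemokine lists lie to the right of 0 in both genotypes, and the stromal list is at -1.51 in WT and 0.25 in WKO.

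The falls given next were smaller in size than the rises of Cxcl2, Tnf and Il1b, though some exceeded the rises of other ligands such as Vegfa. Bbs10, which encodes a chaperonin-like protein of cilium assembly, had 159 and 123 in WT unconfined, 35.4, 34.02 and 18.5 in WT confined, 89.8 and 179.6 in WKO unconfined and 36.9, 27.4 and 32.4 in WKO confined libraries. No confined library reached an unconfined one in either genotype. It changed by -2.27 in WT and -1.96 in WKO (average -2.11, SE 0.273, limma adjusted p 0.000963). Lpar6, a receptor for lysophosphatidic acid, had 841 and 1116 in WT unconfined, 474, 592 and 321 in WT confined, 947 and 1226 in WKO unconfined and 378, 535 and 401 in WKO confined libraries. Its groups did not overlap either, and the difference of its falls was -0.20 with an interval of -0.97 to 0.56 (average -1.21, SE 0.176, limma adjusted p 0.00209). Lpar6 overlaps exons of Rb1, so its count is uncertain. The same holds for Mtcp1 (with Cmc4), for F630028O10Rik (with Mir223) and for AI480526, which shares sequence with another gene. Mtcp1 averaged -1.46, AI480526 -1.43 and F630028O10Rik -1.39 (limma adjusted p 0.00259, 0.00171 and 0.00319). The unnamed gene models Gm42664 and ENSMUSG00000121184 averaged -1.55 and -1.75. Npas4, Wdr5b and Rasgrp2 were also among the 10 largest falls, with adjusted p of 0.0205, 0.0441 and 0.0425 in limma, and lost the call in 6, 9 and 12 of 21 alternatives.

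Among genes with a mean below 50, outside the rule for named genes and chosen after their values were seen, the 5 largest falls of the average response were in immunoglobulin genes, Igkv1-110 (-4.63), Igkv6-23 (-4.61), Igkv1-122 (-4.39), Ighg3 (-4.13) and Ighg1 (-3.85). These belong to families of closely related genes, so the split of reads among them is uncertain. Of the 6 B-lineage markers tested, 1 fell, Cd79b, where 2.07% of all genes tested fell. Its call was lost in 6 of 21 alternatives. Igkv6-23, a kappa light chain segment, had 25.6 and 5.76 in WT unconfined, 0, 0 and 0 in WT confined, 33.5 and 55.7 in WKO unconfined and 0, 0 and 0 in WKO confined libraries. It was present in all unconfined libraries and had no read in any confined one, which allows values of up to 2.35 to 3.59 by library (limma adjusted p of the average 0.00627). Prg2, which encodes the major basic protein of eosinophils, had 24.7 and 26.9 in WT unconfined, 0, 0 and 0 in WT confined, 115 and 103 in WKO unconfined and 32.95, 16.8 and 5.99 in WKO confined libraries. Unconfined WKO libraries were the highest, confined WT libraries were at 0, and confined WKO libraries lay below their own unconfined ones (limma adjusted p 0.00127). The sums of B-lineage markers given above were lower in confined than in unconfined WT libraries and overlapped in WKO, and the part of other cells in these falls was not tested.

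How far the 2 responses differed was read from the interval of each difference. For 445 of the 773 genes that passed in the average response (57.6%), the 95% confidence interval lay between -1 and 1, that is, within 2-fold, where it did so for 60.7% of all genes tested. The count of 445 ran from 102 without unconfined WKO replicate 1 to 1247 without confined WKO replicate 1. The median half-width of the interval over the 773 was 0.64. It excluded 0, without adjustment, for 39 of them (5.05%), where it did so for 2.07% of all genes tested. The interval lay above 0 for 33 (26 rises and 7 falls) and below 0 for 6 (5 rises and 1 fall). Among the 261 genes of the average response with a change over 1 on the log2 scale, only 28 were bounded in this way, so these libraries leave room for large differences in the strongest genes. Zfp36l2 and Hsp90aa1 had narrow intervals, -0.44 to 0.39 and -0.22 to 0.56, whereas that of Mir155hg ran from -3.30 to 3.72.

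**Figure D4:**
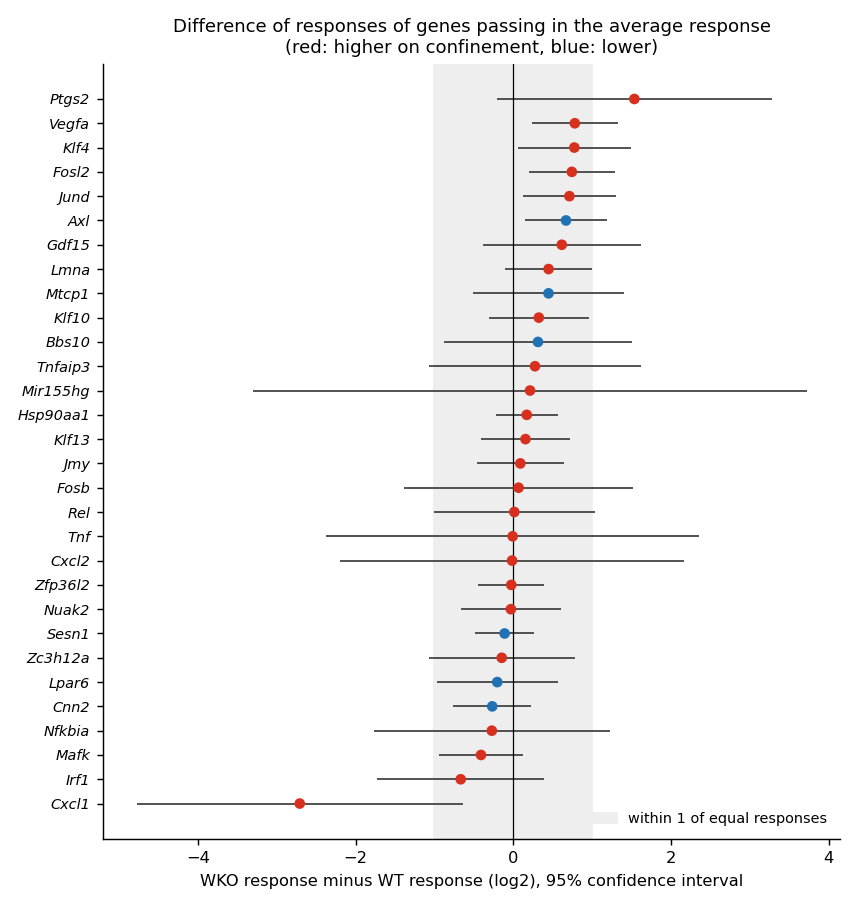
WKO response minus WT response (log2) of 30 genes that passed in the average response, with 95% confidence intervals; red points rose and blue points fell on confinement, and the grey band marks differences within 1. Intervals of Zfp36l2, Hsp90aa1 and Jmy lie within the band, those of Tnf, Cxcl2 and Mir155hg extend beyond it on both sides, and that of Cxcl1 lies below 0.

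The rises were uneven among the WKO libraries. Over the 515 genes, the median rise above the unconfined mean of the same genotype was 0.75, 0.73 and 0.81 in confined WT replicates 2, 3 and 6, and 0.58, 0.82 and 1.24 in confined WKO replicates 1, 2 and 5. Replicate 5 was the highest of its group for 379 of the 515 (73.6%), against 38.2% of all genes tested. The median SD of these genes was 0.385 in confined WKO and 0.140 in confined WT libraries, and over all genes 0.265 and 0.151. The median difference of responses over the rises was 0.10, with 332 of 515 above 0 (51.1% of all genes tested were). It was -0.06 without confined WKO replicate 5 and 0.24 without replicate 1. Over the falls it was 0.05, with 148 of 258 above 0. Replicate 5 also had the highest stromal sum, and the part of those cells in the rises was not tested.

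Turning to the genotype-dependent part, no gene passed the threshold for the difference of responses. The smallest adjusted p was 0.999 in limma, and edgeR and DESeq2 on the recovered reads passed 0 genes as well. At an unadjusted p below 0.05 there were 258 genes in limma (2.07%), 261 in edgeR and 260 in DESeq2. The limma share lies below 0.05, the share that this threshold passes on average when no gene differs. Of the 258, 167 responded more positively in WKO (1.34%) and 91 more negatively (0.731%). The genes named next are those with the smallest unadjusted p at a mean of at least 50; each is a value with its spread, and none is a call.

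On the positive side, Slc2a1, the glucose transporter GLUT1, had 1731 and 1813 in WT unconfined, 1809, 1572 and 1706 in WT confined, 729 and 626 in WKO unconfined and 1036, 972 and 1289 in WKO confined libraries. The WT libraries stayed in one range, while the WKO libraries started far below it and rose part of the way, without overlap between confined and unconfined. Its response was -0.07 in WT and 0.69 in WKO (limma adjusted p 0.897 and 0.0314), a difference of 0.76 (SE 0.199, unadjusted limma p 0.00258). Plk3, a stress-activated polo-like kinase, had 122 and 229 in WT unconfined, 161, 149 and 211 in WT confined, 142 and 110.5 in WKO unconfined and 429, 263 and 435 in WKO confined libraries. Only the confined WKO libraries left the common range, which gave a difference of 1.50 (SE 0.429, unadjusted limma p 0.00449). Srf, the transcription factor whose activity follows actin assembly, had 787 and 861 in WT unconfined, 728, 673 and 761 in WT confined, 624 and 469.7 in WKO unconfined and 803, 667 and 853 in WKO confined libraries. Confined WT libraries were below unconfined WT ones and confined WKO libraries above unconfined WKO ones, so that confined libraries of the 2 genotypes overlapped (difference 0.70, SE 0.221, unadjusted limma p 0.00841). Fhod1, a formin that bundles actin filaments, had 682 and 1018 in WT unconfined, 535, 474 and 582 in WT confined, 649 and 596 in WKO unconfined and 827, 600.1 and 707 in WKO confined libraries. Confined libraries were below unconfined ones in WT and overlapped them in WKO (difference 0.84, SE 0.267, unadjusted limma p 0.0087).

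Rgs1, a brake on chemokine receptor signalling, had 5173 and 5411 in WT unconfined, 3451, 3662 and 3291 in WT confined, 4376 and 4209 in WKO unconfined and 4007, 4070.0 and 5606 in WKO confined libraries. WT libraries were lower on confinement, and WKO libraries overlapped, with replicate 5 above the other WKO libraries (difference 0.68, unadjusted limma p 0.0051). Hspa1b, the inducible Hsp70, had a response of 0.83 in WT and 2.90 in WKO (difference 2.08, unadjusted limma p 0.00793), and its near-copy Hspa1a 2.16 and 3.35 (difference 1.19, unadjusted limma p 0.114). Gfod1 differed by 1.69, Mitd1, which binds ESCRT-III at the midbody, by 1.16, the mitochondrial factor gene Mterf3 by 0.67 and Gm42793 by 2.12 (unadjusted limma p 0.00342, 0.00662, 0.00856 and 0.00879). Gm42793 shares sequence with Spp1, and Mitd1, Mterf3, Plk3, Fhod1 and Slc2a1 overlap exons of other genes, so their counts are uncertain. In 9 of these 10 genes the unconfined WKO libraries lay below the unconfined WT ones and the tenth overlapped. In 6 of the 10 the confined WKO libraries lay above the confined WT ones. Over the 167 genes, 110 started lower in unconfined WKO libraries, as did 22.7% of all tested, and 83 ended higher in confined ones, as did 10.7%. Since the difference of responses is the confined gap between genotypes minus the unconfined gap, choosing genes by it fixes this lean, and the counts are a description only.

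Srf itself carries the element through which SRF acts, the CArG box, and so does Zfp36. Both stretches are shown to set a gene whose genotypes differed at an unadjusted p beside one that rose in both. They are RefSeq sequences of GRCm38.p6 on the minus strand, Srf at chr17:46556185-46556284 and Zfp36 at chr7:28379247-28379326, with the boxes in capitals.
Srf: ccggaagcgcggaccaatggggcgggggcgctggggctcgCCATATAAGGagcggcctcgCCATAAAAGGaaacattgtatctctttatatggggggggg
Zfp36: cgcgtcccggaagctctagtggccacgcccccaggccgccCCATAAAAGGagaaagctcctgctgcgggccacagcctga
The Srf window holds 2 boxes and that of Zfp36 holds 1, which begins 58 bases before the start. A CArG box was found in 1.10% of the windows of genes that rose, 1.98% of genes that fell, 1.10% of all genes tested and 1.47% of all windows. A cyclic AMP response element (TGACGTCA) was found in 3.30%, 1.19%, 2.54% and 1.55%, and an AP-1 site (TGANTCA) in 5.14%, 4.76%, 4.61% and 6.75% of the same sets.

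**Figure D5:**
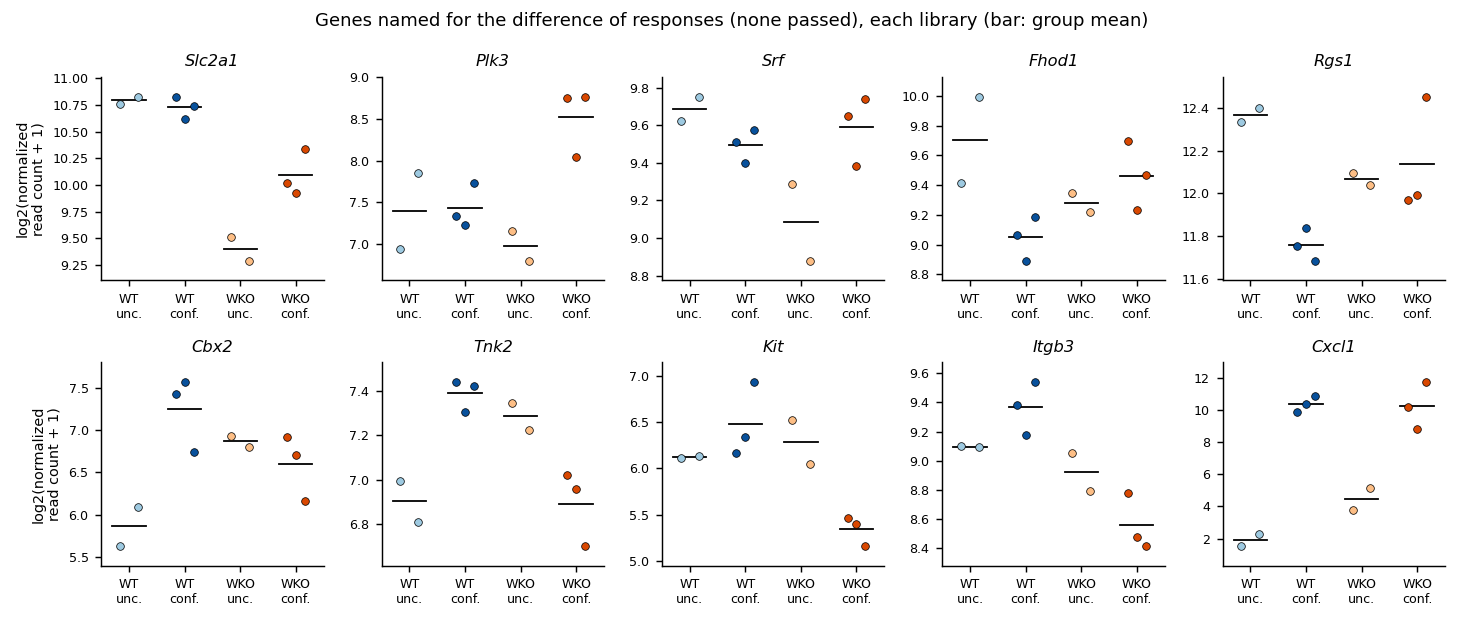
Normalized read count of 10 of the genes with the smallest unadjusted p for the difference of responses, as log2(value + 1) on an axis of its own for each gene; points are libraries and bars are group means. In the upper row the WKO response lies above the WT response and in the lower row below it, and none of the differences passed the adjusted threshold.

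On the negative side, Cbx2, a Polycomb protein, had 48.4 and 67.2 in WT unconfined, 171, 189 and 106 in WT confined, 121 and 110.5 in WKO unconfined and 120.0, 103 and 70.7 in WKO confined libraries. WT libraries were higher on confinement without overlap, whereas unconfined WKO libraries were as high as some confined WT ones and overlapped with confined WKO ones (response 1.39 and -0.27, difference -1.66, SE 0.44, unadjusted limma p 0.00277). Tnk2, the Cdc42-associated kinase ACK1, had 126 and 111 in WT unconfined, 172, 157 and 170.3 in WT confined, 162 and 149 in WKO unconfined and 129, 123 and 103 in WKO confined libraries. The 2 genotypes went in opposite directions without overlap within either (difference -0.88, SE 0.275, unadjusted limma p 0.00786). Kit, the stem cell factor receptor of progenitors and mast cells, had 68.4 and 69.1 in WT unconfined, 70.7, 79.8 and 121 in WT confined, 90.8 and 65.04 in WKO unconfined and 43.2, 41.1 and 34.7 in WKO confined libraries. Confined WKO libraries were the lowest of all, and confined WT libraries reached above the unconfined WT ones (difference -1.30, SE 0.432, unadjusted limma p 0.0112). Kit is one of the neutrophil and progenitor markers, whose sum was the lowest of its group in confined WT replicate 6 and confined WKO replicate 5. Kit itself was the highest of its group in that WT library (121) and the lowest in that WKO library (34.7). The part of those cells in the values of Kit was not tested. Itgb3, the integrin beta 3 subunit found in podosomes, had 548 and 545 in WT unconfined, 667, 577 and 743 in WT confined, 531 and 443 in WKO unconfined and 438, 356 and 340.3 in WKO confined libraries. Confined WT libraries were higher than unconfined ones and confined WKO libraries lower (difference -0.64, SE 0.23, unadjusted limma p 0.0174).

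Cxcl1, the chemokine with the largest rise, was at 1.9 and 3.84 in WT unconfined, 933, 1336 and 1911 in WT confined, 12.8 and 35.1 in WKO unconfined and 1156, 458 and 3418 in WKO confined libraries. Confined libraries of the genotypes overlapped, and the gap lay between the unconfined ones, where WT held 2 and 4 reads, around the floor of 3, and WKO 13 and 34. The difference of -2.71 (SE 0.948, unadjusted limma p 0.0147) was -1.91 with a pseudocount of 5 and -2.89 with one of 0.5, and over the alternatives it ran as low as -3.79 (array weights). It was -3.45 without confined WKO replicate 5, and edgeR's unadjusted p was 0.147. The remaining genes with smallest p on this side were Nudt2, a hydrolase of dinucleoside tetraphosphates (-0.86), the DNA repair exonuclease gene Exo1 (-1.05), Pir, an iron-binding nuclear protein (-1.36), the arrestin-domain gene Arrdc3 (-0.87) and Gm49338, which shares sequence with Bace1 (-0.88). In 8 of the 10 genes the unconfined WKO libraries lay above the unconfined WT ones, and in 5 the confined WKO libraries lay below the confined WT ones.

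Within the lists, differences of the responses leaned to WKO for some early genes. Of 11 AP-1 factors, 9 had a larger response in WKO, and 7 without confined WKO replicate 5, where 51.1% of all genes tested lay above 0. An unadjusted p below 0.05 was met by 4, and by 2.07% of all genes tested. Their median difference was 0.71 (0.52 without confined WKO replicate 5), where the median over all genes tested was 0.01. Over the alternatives it ran from 0.21 (array weights) to 0.87 (without confined WKO replicate 2). Fosl2 had 740.0 and 1062 in WT unconfined, 2931, 2519.8 and 2217 in WT confined, 774 and 836 in WKO unconfined and 4293, 3246 and 4109.8 in WKO confined libraries. Unconfined libraries overlapped, and confined WKO libraries were all above confined WT ones (difference 0.74, SE 0.251, unadjusted limma p 0.0122). Jund differed by 0.71 (unadjusted limma p 0.0224); the remaining 2, Jun and Atf3, fall outside the rule for named genes and were singled out after their values were seen (0.99 and 0.91, unadjusted limma p 0.0352 and 0.0413). All 6 EGR and NR4A factors had the larger response in WKO, with a median difference of 0.87 (0.68 without confined WKO replicate 5, 0.43 without unconfined WT replicate 3 and 1.36 without unconfined WT replicate 1), and none had an unadjusted p below 0.05. The MAP kinase feedback genes had a median of 0.51, which was 0.11 without replicate 5. Dusp8, a phosphatase for JNK and p38, had 40.8 and 36.5 in WT unconfined, 135, 123 and 206 in WT confined, 1.97 and 17.6 in WKO unconfined and 162, 122 and 265 in WKO confined libraries. The unconfined WKO libraries, at 2 and 17 reads, were the lowest and the confined groups overlapped (difference 2.62, SE 0.863, unadjusted limma p 0.0105).

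For the NF-kB list the median difference was 0.24 and -0.13 without replicate 5, for the chemokines 0.41 and -0.11, for the cytokines 0.26 and -0.31 and for the Kruppel-like factors 0.08 and -0.05. In these 4 lists the sign thus changed without that library. Without confined WKO replicate 2 the first 3 medians were 0.40, 0.75 and 0.83, and without confined WKO replicate 1 that of the Kruppel-like factors was 0.32. Among the cytokines, Vegfa had 1178 and 1634 in WT unconfined, 2856, 2569 and 2152 in WT confined, 922 and 1237 in WKO unconfined and 3677, 3111 and 3188 in WKO confined libraries, with all confined WKO libraries above all confined WT ones (difference 0.78, SE 0.251, unadjusted limma p 0.0092, and 0.81 without replicate 5). Hbegf, the heparin-binding EGF-like growth factor, had 224 and 225 in WT unconfined, 162, 181 and 296 in WT confined, 75.97 and 56.8 in WKO unconfined and 151, 154 and 482 in WKO confined libraries. Unconfined WKO libraries were the lowest, and of the confined WKO libraries 2 were just below all WT libraries and replicate 5 was above them (difference 1.88, SE 0.62, unadjusted limma p 0.0105). The ribosomal protein genes leaned the other way, with 54 of 62 below 0 and a median of -0.19, which was -0.01 without confined WKO replicate 5, -0.40 without unconfined WT replicate 3 and 0.10 with the replicate number as a block.

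Most YAP and TEAD targets and stromal markers had the more positive response in WKO. Of 13 YAP and TEAD targets 11 were above 0, with a median of 0.67 (0.35 without confined WKO replicate 5 and 1.03 without confined WT replicate 6), and 4 had an unadjusted p below 0.05. Of all genes tested, 51.1% were above 0 and 2.07% had such a p. Ccn2, a matricellular protein and YAP target, had 95.9 and 159 in WT unconfined, 2.14, 17.6 and 25.7 in WT confined, 285 and 189 in WKO unconfined and 196, 120.0 and 433 in WKO confined libraries. Confined WT libraries were far below unconfined WT ones, while WKO libraries of both conditions overlapped (response -3.43 and -0.10, difference 3.33, SE 1.08, unadjusted limma p 0.00993). Of 17 stromal markers 16 were above 0, with a median difference of 1.82 (0.95 without confined WKO replicate 5 and 2.82 without confined WKO replicate 2), 5 had an unadjusted p below 0.05 and none passed. Postn, which encodes periostin of the matrix, had 38.00 and 135 in WT unconfined, 9.64, 10.6 and 28.9 in WT confined, 70.05 and 92.9 in WKO unconfined and 242, 40.01 and 756 in WKO confined libraries. Its confined WT libraries were the lowest and its confined WKO libraries the most dispersed (difference 3.50, unadjusted limma p 0.024). Confined WT libraries had both the lowest Ccn2 and the lowest stromal sums. Library by library, the order of Ccn2 matched that of the stromal sum within unconfined WT and confined WKO, but not within the other groups. The part of stromal cells in the values of Ccn2 was not tested.

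Most genes that passed in a single genotype moved the same way in the other. Of the 48 genes that passed in WT alone, 48 had the same direction in WKO, with a median size of 0.98 in WT and 0.53 in WKO, and 8 had an unadjusted p below 0.05 for the difference. Of the 118 that passed in WKO alone, 117 had the same direction in WT, with a median size of 1.27 in WKO and 0.74 in WT, and 24 had such a p. The 96 that passed in both had median sizes of 2.01 in WT and 2.00 in WKO. The counts behind these sets moved with single libraries as given above. Of all genes tested, 2.07% had an unadjusted p below 0.05 for the difference. Selection on 1 genotype's own values makes its median the larger and favours a small p for the difference. These medians and counts are therefore a description. Genotypes moved in opposite directions, without overlap in either, for 105 genes (0.843% of all tested), and none of these passed the test of the difference.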

How the data were processed

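RNA of macrophages, 5 ng for each library, was sequenced, and FastQC, Trim Galore, STAR and build GRCm38 (mm10) are named without version or role, per the submitters' processing notes. How reads were counted, with which annotation and with or without strand, is not given in the sources used here. The values are a signal deposited by the authors as normalized read counts, that is, whole reads divided by 1 factor for each library, and within a tolerance of 1e-06 all values came out as whole reads. Libraries held 13295701 to 19329908 reads, so 3 reads, taken as the floor, stand for values of 2.35 to 3.59.

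Genes with a mean of at least 10 were tested on log2(value + 1) with limma 3.58.1 in R 4.3.3, with 1 mean for each of the 4 groups, a mean-variance trend and Benjamini-Hochberg adjustment over all 12455 genes (threshold 0.05). The average and the difference of responses use the same 10 libraries. edgeR 4.0.16 (quasi-likelihood) and DESeq2 1.42.0 on the recovered reads, other scalings, pseudocounts, filters and variance models, the replicate block and leaving out each library were the alternatives. The limma, edgeR and DESeq2 fits were tested on simulated counts, for the difference of responses only. The simulation gave all groups the same dispersion, whereas the spread of these libraries differed between groups.

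The members and the gene lists were chosen with earlier results of these data known, so lists are described and not tested. Named genes are Was, 11 genes chosen by name, the 10 genes on each side with the smallest p for the difference, the 10 largest rises and falls of the average response without overlap (both at a mean of at least 50), and from each list up to 4 genes that passed in the average response and 2 with the smallest p for the difference. Symbols came from the deposited table for 11806 tested genes and from GENCODE for 552, and 97 have an identifier only. Genes that overlap exons of another gene or share sequence with one (blastn 2.17.0) are called uncertain. Motifs were searched in RefSeq's 250 bases before each start site.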

Additional observations from a re-analysis of the deposited data

Results flagged for a closer look

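For 9 of the 137 named genes, all confined libraries lay on opposite sides of the unconfined libraries in the 2 genotypes, which is how 105 of the 12455 genes tested (0.843%) behaved. These 9 were named for a small p of the difference in these same libraries, which by itself favours opposite directions. Their count is a description only. None of the differences passed limma's adjusted threshold. On the side of a more positive response in WKO, the difference of responses on the log2 scale was 1.156 for Mitd1, 0.7471 for Polk, a translesion DNA polymerase gene, 0.6998 for Srf and 0.6743 for Mterf3. On the other side it was -1.356 for Pir, -1.297 for Kit, -0.8804 for Tnk2, -0.8804 for Gm49338 and -0.6367 for Itgb3. Srf and Itgb3 belong to actin regulation and adhesion, whereas Kit is a progenitor marker.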

How the results depend on the processing

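The count of genes for the difference of responses was 0 under all 21 alternatives, with 162 to 755 genes at an unadjusted p below 0.05. DESeq2 gave 1219 genes for the average response, 332 for WT, 484 for WKO and 733 with a bounded difference. Without a mean-variance trend these counts were 424, 20, 45 and 195, and with array weights 2220, 419, 1735 and 1676. No filter on low values gave 259 bounded genes. Fits on the libraries of 1 genotype gave 455 for WT and 33 for WKO. Leaving out 1 library at a time gave 288 to 1807 for the average response, 22 to 397 for WT, 43 to 1043 for WKO and 102 to 1247 bounded genes. Without confined WKO replicate 1 the 4 counts were 1807, 330, 1043 and 1247. Without confined WKO replicate 5 the WT count was 397, and without confined WKO replicate 2 the bounded count was 257. Omitting unconfined WKO replicates 1 and 3 in turn gave 288 and 354 for the average, 43 and 76 for WKO and 102 and 140 bounded. Omitting unconfined WT replicates 1 and 3 gave 363 and 408, 22 and 33 for WT, and 148 and 177 bounded. Omitting confined WT replicates 2, 3 and 6 gave 429, 458 and 443 for the average, 60, 60 and 66 for WT, and 193, 205 and 211 bounded, and the first 2 gave 132 and 126 for WKO. The share of rises in the average response, 66.6%, was 78.5% without unconfined WT replicate 1 and 79.5% without unconfined WKO replicate 1. The cause of these shifts was not tested. The difference for ND6, 0.64, ran from -0.0602 (without unconfined WKO replicate 3) to 1.339 (without unconfined WKO replicate 1).

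Over the pairs of libraries that share a replicate number, correlations of deviations from the group means lay between -0.11 and 0.08. This cannot exclude pairing, because the deviations mirror each other within each unconfined group and no number occurs in every group. The fit with the replicate block gave 383 genes for the average response (74.4% rises), 208 bounded genes and 0 for the difference; numbers 5 and 6 each occur in 1 library, which the block then absorbs. The median SE was 0.145 for the average and 0.290 for the difference. Depth limits genes near the floor of 3 reads in unconfined libraries, such as Cxcl1, Cxcl3, Gem and Mir155hg.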
